A study of Mus musculus with 12 samples.

Results

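The expression of 8 ligands of the tumor necrosis factor (TNF) superfamily other than Tnf itself was followed in bone marrow-derived macrophages (BMDMs): Tnfsf8, Tnfsf9, Tnfsf10, Tnfsf12, Tnfsf13, Tnfsf13b, Tnfsf14 and Tnfsf15. They were chosen by symbol and matched through the GENCODE mouse annotation to 8 of the 48526 genes of the count table. All 8 passed the filter on low counts, among 15523 genes that did. Total RNA-seq had been performed on BMDMs of male mice aged 7 to 10 weeks, grown for 6 days in medium conditioned by L929 cells, a fibroblast line that secretes macrophage colony-stimulating factor. HSS9 KO mice were homozygous for a deletion upstream of Tnf, in the enhancer that the study's text names TNF-9, and WT mice carried HSS9+/+. Cells of each genotype received PBS (UT) or lipopolysaccharide (LPS), the bacterial cell-wall product that Toll-like receptor 4 senses, for 6 h, and each of the 4 groups held 3 libraries. The labels describe WT as littermates, while the methods describe homozygous KO breeding pairs and purchased C57BL/6 mice, so genotype and breeding colony cannot be told apart. The labels give 1 batch number per replicate number, and no source stated whether the 3 libraries of a group came from separate mice, so that p-values measure the spread between these libraries.

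Ligands of this superfamily are trimers that are made as membrane proteins, and several are cut free by proteases. Each binds one or a few receptors of the TNF receptor superfamily, which signal for survival, cell death or costimulation. In macrophages and dendritic cells the family carries signals to lymphocytes: Tnfsf8 (CD30 ligand), Tnfsf9 (4-1BB ligand) and Tnfsf15 (TL1A) costimulate T cells, Tnfsf13 (APRIL) and Tnfsf13b (BAFF) sustain B cells and plasma cells, Tnfsf10 (TRAIL) can trigger apoptosis, Tnfsf12 (TWEAK) acts on tissue cells, and Tnfsf14 (LIGHT) acts on lymphocytes and stroma.

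Depth ranged from 26154533 to 36423921 counts per library. Tnf, the gene after which the deleted enhancer is named, was at 889.7 ± 57.4 CPM (counts scaled to a common library size; SD, n = 3) in WT LPS and 432 ± 15.2 CPM in KO LPS, which was a log2 fold change of -1.04 (SE 0.06, edgeR adjusted p = 2.76e-10). The 8 macrophage markers summed to 28500 to 29500 CPM in WT UT, 32800 to 33900 CPM in KO UT, 24500 to 26000 CPM in WT LPS and 27100 to 28800 CPM in KO LPS, which was higher in KO under both treatments with no overlap. Lyz2 made up most of each of these sums. Among T-cell markers, Cd3d, Cd3e, Cd3g and Trac never exceeded 4 counts, while the 7-gene list summed to 1.81 to 2.70 CPM in WT UT, 2.73 to 3.64 CPM in KO UT, 6.74 to 7.86 CPM in WT LPS and 7.28 to 9.42 CPM in KO LPS, where Lck had a mean of 6.93 CPM in WT LPS. The 5-gene dendritic cell list summed to 6.82 to 8.40 CPM without LPS and 11 to 14.6 CPM with LPS. The 5-gene B-cell list was lower with LPS, at 0.75 to 1.3 CPM in WT UT and 0.0898 to 0.283 CPM in WT LPS. In KO it was at 1.1 to 1.79 CPM without LPS and 0.22 to 0.268 CPM with it. The 4-gene NK-cell list was at 0.14 to 0.362 CPM in WT UT, 0 to 0.0471 CPM in WT LPS, 0.231 to 0.329 CPM in KO UT and 0 to 0.23 CPM in KO LPS. The part of these lists in the LPS responses was not tested. Small structured RNAs, such as small nucleolar RNAs, took 3.00 to 3.25% of counts in WT UT, 6.64 to 7.98% in KO UT, 4.04 to 6.89% in WT LPS and 3.23 to 3.43% in KO LPS. In bulk RNA, fewer cells of a type and less RNA per cell cannot be told apart.

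Sequence before the start sites is shown first, for members of the set that was higher and of the set that was lower with LPS. RefSeq promoter windows of 300 bases on GRCm38.p6, from 250 bases before the start to 50 bases after it, were found for 6 of the 8 members (Tnfsf13b has 2), and none for Tnfsf9 and Tnfsf12. They were searched on both strands for the kappaB site by name, and for an interferon regulatory factor (IRF) element GAAANNGAA, an activator protein 1 (AP-1) site TGANTCA, a gamma-activated (GAS) element TTCNNNGAA and a TATA box TATAAA. The same AP-1 letters, TGAGTCA, stood in the windows of Tnfsf13, Tnfsf13b and Tnfsf14, which were lower with LPS. None of the 7 windows held a kappaB, GAS or TATA match. No AP-1 match was found in the windows of Tnfsf8, Tnfsf10 and Tnfsf15, which were higher. Of all 32851 RefSeq windows of this length, 7.81% held an AP-1 site, 8.56% an IRF element, 8.46% a kappaB site, 8.30% a GAS element and 13.6% a TATA box. The IRF element was first searched with 1 further A at its end, a form held by 3.44% of all windows, and was shortened after those matches were seen. The longer form was matched by Tnfsf13b alone and the shorter one also by Tnfsf8, so the Tnfsf8 match rests on that change. A match gives letters only and was not tested as a binding site, and no link of matches with the direction of the LPS response was tested. Of these, 5 windows are printed 5′ to 3′ with matches in capitals: 1 window of each ligand with AP-1 letters, that of Tnfsf8, whose level differed most with genotype without LPS, and that of Tnfsf15, which rose most with LPS and matched none of the motifs. They lie at chr11:69685505-69685804 (Tnfsf13, minus strand), chr8:10006383-10006682 (Tnfsf13b, plus strand, the downstream window), chr17:57194132-57194431 (Tnfsf14, minus strand), chr4:63861235-63861534 (Tnfsf8, minus strand) and chr4:63745010-63745309 (Tnfsf15, minus strand).
Tnfsf13: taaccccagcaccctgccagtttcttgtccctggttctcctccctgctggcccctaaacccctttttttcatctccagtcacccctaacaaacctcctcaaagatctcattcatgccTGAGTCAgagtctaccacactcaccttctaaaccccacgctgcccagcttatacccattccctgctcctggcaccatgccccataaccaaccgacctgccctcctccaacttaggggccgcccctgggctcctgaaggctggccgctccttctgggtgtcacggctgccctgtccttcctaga
Tnfsf13b: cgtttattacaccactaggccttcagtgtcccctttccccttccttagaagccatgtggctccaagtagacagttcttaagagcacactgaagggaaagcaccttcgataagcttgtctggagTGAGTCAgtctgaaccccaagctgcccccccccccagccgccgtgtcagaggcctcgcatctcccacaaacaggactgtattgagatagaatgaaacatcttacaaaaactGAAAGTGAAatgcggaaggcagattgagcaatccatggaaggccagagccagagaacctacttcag
Tnfsf14: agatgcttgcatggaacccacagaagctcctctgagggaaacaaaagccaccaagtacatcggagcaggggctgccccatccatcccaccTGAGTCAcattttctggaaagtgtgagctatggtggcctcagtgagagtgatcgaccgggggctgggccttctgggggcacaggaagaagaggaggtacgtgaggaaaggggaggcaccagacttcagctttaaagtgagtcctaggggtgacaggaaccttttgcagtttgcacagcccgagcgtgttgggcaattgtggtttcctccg
Tnfsf8: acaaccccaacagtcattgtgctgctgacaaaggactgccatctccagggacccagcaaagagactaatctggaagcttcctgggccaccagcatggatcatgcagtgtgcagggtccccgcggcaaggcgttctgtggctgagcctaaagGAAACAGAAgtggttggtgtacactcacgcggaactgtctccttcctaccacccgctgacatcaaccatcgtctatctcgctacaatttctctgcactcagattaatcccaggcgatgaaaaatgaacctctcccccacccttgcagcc
Tnfsf15: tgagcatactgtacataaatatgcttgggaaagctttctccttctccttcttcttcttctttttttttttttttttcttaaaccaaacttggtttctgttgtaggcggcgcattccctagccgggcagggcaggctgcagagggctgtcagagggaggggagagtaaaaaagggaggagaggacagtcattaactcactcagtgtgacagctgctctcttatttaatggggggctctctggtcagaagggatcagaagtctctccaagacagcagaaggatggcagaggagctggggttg
In the Tnfsf13 window the AP-1 letters begin at -133 from the start, in that of Tnfsf14 at -160 and in the printed one of Tnfsf13b at -127. The upstream window of Tnfsf13b, not printed, overlaps the printed one and holds the same bases, which begin 39 bases after its own start. The IRF letters begin at -16 for Tnfsf13b and at -99 for Tnfsf8.

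To examine how the ligands respond to LPS, each genotype was compared with and without it. In both genotypes 4 members rose and 4 fell, with an edgeR adjusted p under 0.05 and an absolute log2 fold change over 1. The same rule called 19.1% of all genes as higher in WT and 18.7% as lower, and in KO 17.7% as higher and 19.3% as lower. The libraries with and without LPS did not overlap for any of the 8 members in either genotype, as was the case for 74.8% of all genes in WT and 76.0% in KO. The members that rose were Tnfsf8, Tnfsf9, Tnfsf10 and Tnfsf15, and the members that fell were Tnfsf12, Tnfsf13, Tnfsf13b and Tnfsf14.

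**Figure D1:**
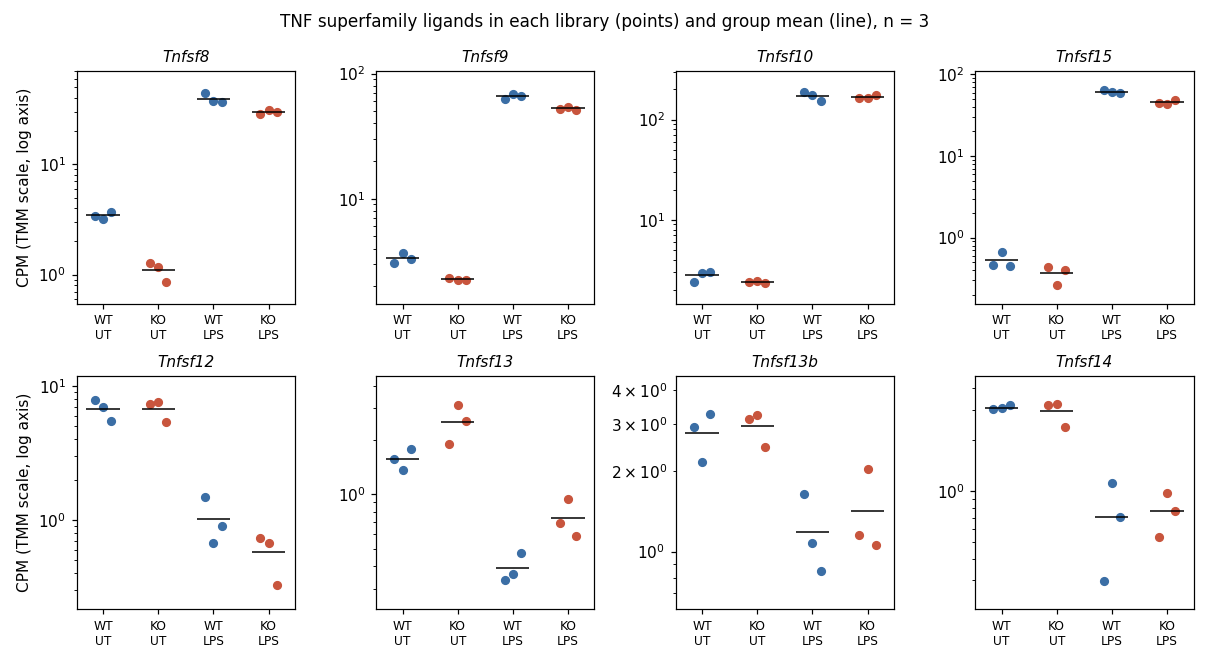
Level of each ligand in CPM on a log axis, with 1 point per library and a line at the mean of each group (n = 3; WT in blue, KO in red). The upper row holds the 4 ligands that were higher in every LPS library, and the lower row the 4 that were lower; Tnfsf8 is the ligand whose KO UT points lie farthest below WT UT.

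Tnfsf15 (ENSMUSG00000050395.8, chr4:63727084-63745113, minus strand), a costimulator of T cells through the death receptor Tnfrsf25, had the steepest rise. It had 20, 30 and 21 counts in WT UT and 1740, 1367 and 1256 counts in WT LPS. In KO it had 15, 9 and 16 counts without LPS and 1165, 1147 and 1329 counts with it. The libraries with and without LPS were far apart in both genotypes. The log2 fold change with LPS was 6.87 (SE 0.12, adjusted p = 4.53e-22) in WT and 6.93 (SE 0.13, adjusted p = 2.23e-21) in KO.

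Tnfsf10 (ENSMUSG00000039304.11, chr3:27317028-27342427, plus strand), the apoptosis-inducing ligand TRAIL, reached the highest CPM of the 8. Its level was 2.41, 2.96 and 3.02 CPM in WT UT and 189, 175 and 155 CPM in WT LPS. In KO it was 2.37, 2.47 and 2.35 CPM without LPS and 166, 165 and 175 CPM with it. The LPS libraries of the genotypes overlapped in full. LPS changed it by a log2 fold of 5.95 (SE 0.09, adjusted p = 8.89e-23) in WT and 6.13 (SE 0.10, adjusted p = 9.53e-23) in KO.

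Tnfsf9 (ENSMUSG00000035678.7, chr17:57105325-57107757, plus strand), which costimulates T cells through 4-1BB, was at 3.04, 3.71 and 3.32 CPM in WT UT and 62.7, 68.2 and 66.7 CPM in WT LPS. KO libraries held 2.34, 2.23 and 2.25 CPM without LPS and 52.5, 54.3 and 51.5 CPM with it. All LPS libraries were far above all UT libraries. The increase was 19.6-fold in WT (log2 4.29, SE 0.08) and 23.2-fold in KO (log2 4.53, SE 0.09).

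Tnfsf8 (ENSMUSG00000028362.2, chr4:63831308-63861347, minus strand), the ligand of CD30, was at 3.39, 3.20 and 3.72 CPM in WT UT and 44.7, 37.5 and 36.6 CPM in WT LPS. KO libraries held 1.27, 1.18 and 0.860 CPM without LPS and 28.9, 30.9 and 30.0 CPM with it. Every KO library was under every WT library of the same treatment. The increase with LPS was 11.5-fold in WT (log2 3.53, SE 0.10) and 27.3-fold in KO (log2 4.77, SE 0.13).

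Among the members that fell, Tnfsf12 (ENSMUSG00000097328.7), the ligand of the receptor Fn14, had the largest change. It had 332, 315 and 259 counts in WT UT and 40, 15 and 19 counts in WT LPS. KO libraries held 252, 257 and 213 counts without LPS and 19, 18 and 9 counts with it. Its log2 fold change was -2.69 (SE 0.24) in WT and -3.54 (SE 0.27) in KO.

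Tnfsf14 (ENSMUSG00000005824.6, chr17:57189492-57194177, minus strand), a ligand of the lymphotoxin beta receptor and of HVEM, had 129, 139 and 150 counts in WT UT and 8, 25 and 15 counts in WT LPS. In KO it had 111, 110 and 94 counts without LPS and 14, 26 and 21 counts with it. Every LPS library was below every UT library. This gave a log2 fold change of -2.16 (SE 0.30) in WT and -1.94 (SE 0.29) in KO.

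Tnfsf13 (ENSMUSG00000089669.7), the plasma cell survival factor APRIL, had 67, 62 and 84 counts in WT UT and 9, 8 and 10 counts in WT LPS. KO libraries held 66, 106 and 101 counts without LPS and 18, 25 and 16 counts with it. On the log2 scale the change was -2.02 (SE 0.32) in WT and -1.77 (SE 0.27) in KO.

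Tnfsf13b (ENSMUSG00000031497.9, chr8:10006467-10039072, plus strand), the B-cell survival factor BAFF, had the smallest change with LPS. It had 125, 98 and 153 counts in WT UT and 44, 24 and 18 counts in WT LPS. In KO it had 108, 110 and 97 counts without LPS and 30, 54 and 29 counts with it. LPS changed it by -1.20 on the log2 scale (SE 0.27, adjusted p = 4.88e-04) in WT and -1.05 (SE 0.26, adjusted p = 0.00123) in KO. The KO value stayed near the fold minimum and passed under it, at -0.998 to -0.879, when KO UT replicate 1 or 2 or KO LPS replicate 1 or 3 was left out.

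With the share of small structured RNAs as a covariate, the 4 rises were still called in both genotypes. Of the falls in KO, only that of Tnfsf12 was still called, since the log2 fold change was -1.56 (adjusted p = 0.135) for Tnfsf13, -1.55 (adjusted p = 0.0630) for Tnfsf13b and -0.59 (adjusted p = 0.561) for Tnfsf14. In WT, that of Tnfsf13b was -0.94 (adjusted p = 0.0536). The share was 6.64 to 7.98% in KO UT and 3.23 to 3.43% in KO LPS, and it did not overlap between any groups compared here. The fit with this covariate therefore cannot separate the share from LPS or genotype.

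Levels were compared between ligands per kb of exon. In WT UT the order was Tnfsf12 at 4.45 ± 0.755 CPM per kb, Tnfsf9, Tnfsf14, Tnfsf13, Tnfsf8, Tnfsf10, Tnfsf13b and Tnfsf15 at 0.157 ± 0.0354 CPM per kb (SD, n = 3). The ranges of Tnfsf13 and Tnfsf8 overlapped, as did those of Tnfsf10 and Tnfsf13b. In KO UT the order was Tnfsf12, Tnfsf9, Tnfsf14, Tnfsf13, Tnfsf10, Tnfsf13b, Tnfsf8 and Tnfsf15, in which Tnfsf9, Tnfsf14 and Tnfsf13 each overlapped the next of them and Tnfsf10 overlapped Tnfsf13b. Tnfsf8 was thus above Tnfsf10 and Tnfsf13b in WT and under both in KO.

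After LPS the order began with Tnfsf9, Tnfsf10, Tnfsf15 and Tnfsf8 in both genotypes, with no overlap between neighbours. Tnfsf9 was at 51.1 ± 2.24 CPM per kb in WT LPS and 40.9 ± 1.10 CPM per kb in KO LPS. Tnfsf8, the lowest of the 4, was at 10.4 ± 1.16 and 7.86 ± 0.268 CPM per kb. The other 4 members lay between 0.173 and 0.673 CPM per kb in WT LPS and between 0.206 and 0.451 CPM per kb in KO LPS, and each overlapped its neighbour in that order.

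**Figure D2:**
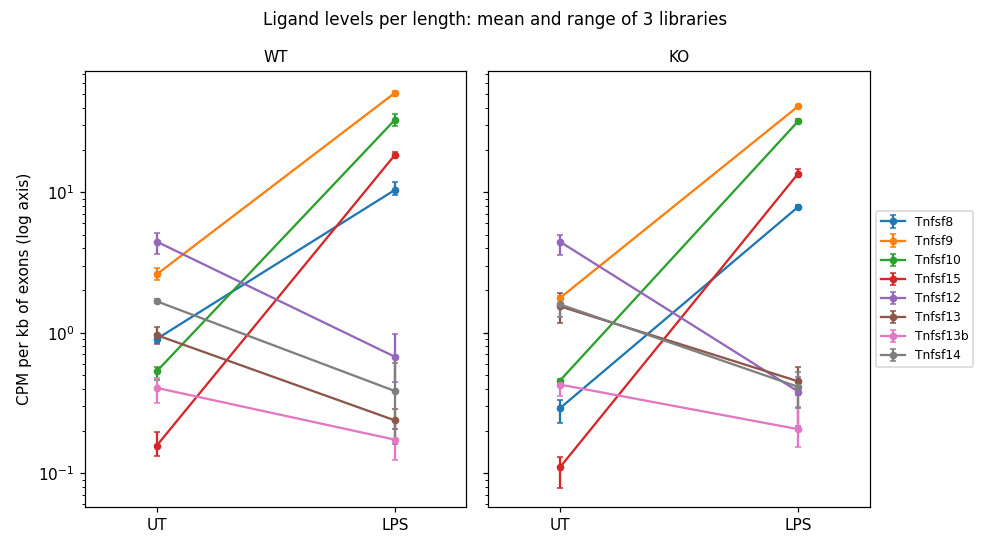
Ligand levels in CPM per kb of exon on a log axis, without (UT) and with LPS, in WT (left) and KO (right). Points are means of 3 libraries and bars span their range. Tnfsf12 leads without LPS and Tnfsf9 with it, and the line of Tnfsf8 starts lower in KO (0.290) than in WT (0.903).

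Some members are neighbours in the genome (GRCm38). Tnfsf15 and Tnfsf8 are 86.2 kb apart with no annotated protein-coding gene between them, and both rose with LPS. Tnfsf13 and Tnfsf12 are 0.465 kb apart on chromosome 11, and both fell. Tnfsf9 and Tnfsf14 are 81.7 kb apart with Cd70, a further ligand gene, between them, and they moved in opposite directions. Cd70 reached 8 counts at most and was not tested.

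Receptors were examined as a list of 16 genes, which also holds Btla, a binding partner of the receptor Tnfrsf14 rather than of any of the 8 ligands. Of the 16, 15 were in the table and 12 passed the filter. With LPS, 5 of the 12 rose and 3 fell in WT, beside 19.1% and 18.7% of all genes. In KO 4 rose and 3 fell, beside 17.7% and 19.3% of all genes. The median log2 fold change of the list was 0.66 in WT and 0.62 in KO, beside 0.05 and -0.06 over all genes. Without Btla, which rose in both genotypes, 4 of 11 rose and 3 fell in WT, and 3 rose and 3 fell in KO, with medians of 0.65 and 0.58. Tnfrsf9, the 4-1BB receptor of Tnfsf9, had the largest rise, from 0.385 ± 0.0479 CPM in WT UT to 10.8 ± 0.702 CPM in WT LPS (log2 4.80, SE 0.16). KO UT held 0.541 ± 0.137 CPM of it and KO LPS 20.7 ± 1.34 CPM (log2 5.26, SE 0.15). Tnfrsf22, a receptor related to those of TRAIL that lacks a death domain, had the largest fall, with a log2 fold change of -2.24 (SE 0.35) in WT and -2.62 (SE 0.35) in KO. Tnfrsf13c, the BAFF receptor of B cells, did not exceed 4 counts, nor Tnfrsf25, the receptor of Tnfsf15, 1 count, and neither was tested.

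**Figure D3:**
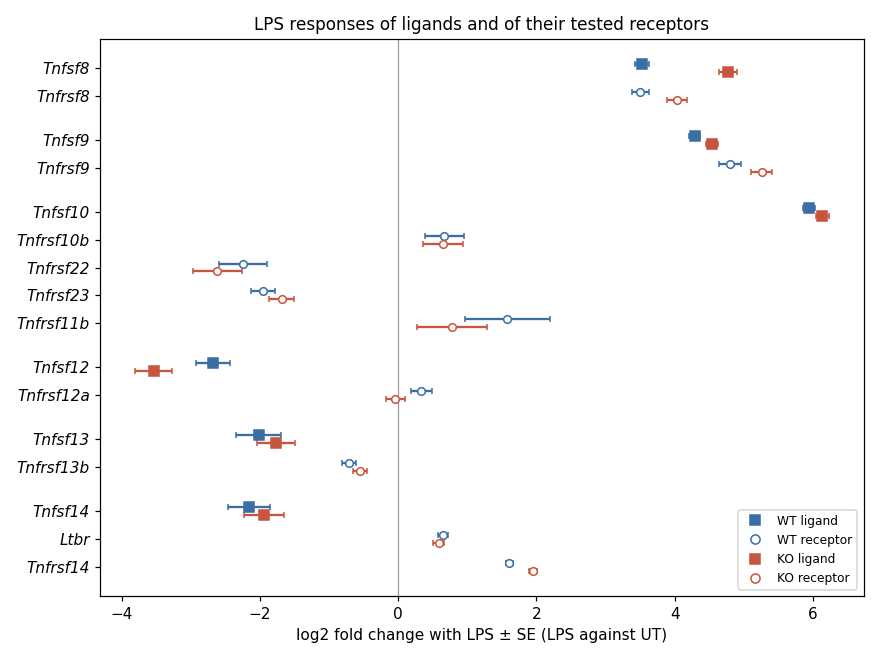
Log2 fold change with LPS (LPS against UT) of ligands (filled squares) and of tested receptors drawn below them (open circles), in WT (blue) and KO (red). Bars are SE of the fit. The ligands drawn are Tnfsf8, Tnfsf9, Tnfsf10, Tnfsf12, Tnfsf13 and Tnfsf14. Tnfsf13b, Tnfsf15, the receptor Tnfrsf26 and Btla passed the filter but are not drawn. Tnfsf8 and Tnfsf9 and their receptors Tnfrsf8 and Tnfrsf9 all lie to the right of 3, while Tnfsf14 lies left of 0 and its receptor Tnfrsf14 right of it.

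Of the 10 other ligands of the superfamily, 4 passed the filter, and 3 of these rose with LPS in each genotype and none fell. Of all genes, 19.1% rose in WT and 17.7% in KO. Tnfsf4, the ligand of OX40, had the largest rise, with a log2 fold change of 6.21 (SE 0.15) in WT and 6.54 (SE 0.17) in KO. Among 6 proteases that cut ligands of the superfamily, 4 passed, and 2 rose in each genotype, beside the same shares of all genes. The largest rise was that of Pcsk7, a furin-like convertase, at a log2 fold change of 1.46 (SE 0.06) in WT and 1.68 (SE 0.06) in KO. The most negative value was that of Adam10, at -0.89 (SE 0.09) in WT and -0.25 (SE 0.09) in KO, which did not pass the fold minimum.

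To examine whether the deletion goes with other levels of these ligands, KO was compared with WT under each treatment. Both contrasts are given side by side below, and they share no library. After LPS, none of the 8 members passed both the adjusted p and the fold minimum in edgeR, beside 1.25% of all genes. DESeq2 called none either, and 5 members had an unadjusted p under 0.05, beside 28.5% of all genes. At any fold, 3 members had an adjusted p under 0.05, all of them lower in KO, beside 14.3% of all genes in either direction and 6.54% in that direction. The libraries of 4 members did not overlap between KO LPS and WT LPS, Tnfsf13 being higher and the others lower, beside 29.1% of all genes. Without LPS, 1 member was called, Tnfsf8, beside 1.82% of all genes. At any fold, 3 members had an adjusted p under 0.05, beside 23.8% of all genes, and 4 did not overlap, beside 40.8%.

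**Figure D4:**
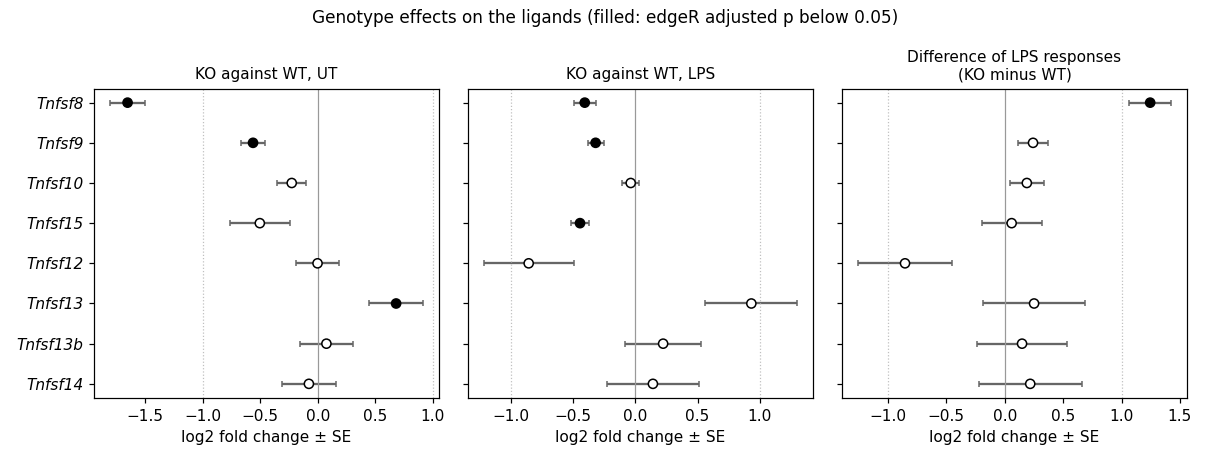
Log2 fold change of KO against WT without LPS (left), with LPS (middle), and the difference between the LPS responses, KO minus WT (right); bars are SE of the fit, filled points have an edgeR adjusted p under 0.05, and dotted lines mark the fold minimum. Tnfsf8 is the ligand past the minimum with a filled point, at -1.65 without LPS and 1.25 in the difference.

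Tnfsf8 had 145, 145 and 175 counts in WT UT and 44, 40 and 34 counts in KO UT. These were 3.44 ± 0.264 and 1.10 ± 0.216 CPM (SD, n = 3), and the groups lay far apart. The log2 fold change was -1.65 (SE 0.15, adjusted p = 1.49e-07), or 3.14-fold lower in KO. Within batches 1, 2 and 3 the difference was -1.37, -1.40 and -2.04 on the log2 CPM scale. After LPS the same level was at 39.6 ± 4.43 CPM in WT and 29.9 ± 1.02 CPM in KO, a log2 fold change of -0.41 (SE 0.09, adjusted p = 0.00358) that was under the fold minimum.

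The LPS response of Tnfsf8 was larger in KO than in WT by 1.25 on the log2 scale (SE 0.18, adjusted p = 9.64e-05). Tnfsf8 was the 1 member called in this test of the difference between the responses, beside 2.16% of all genes at the fold minimum and 16.8% at any fold. Within batches 1, 2 and 3 the difference was 0.74, 1.12 and 1.76. Small structured RNAs, at 6.64 to 7.98% of counts in KO UT and 3.00 to 3.25% in WT UT, moved with the same groups. With their share as a covariate the difference was 0.73 (adjusted p = 0.346) and the KO UT value was -1.30 (adjusted p = 0.00145). The 6-gene neutrophil list also moved with genotype without LPS, at 18.0 to 19.3 CPM in WT UT and 40.1 to 45.2 CPM in KO UT. Its defining gene Ly6g had 0 counts in all libraries, which allows at most 3 counts per library, and S100a8 and S100a9 made up most of the sum. After LPS this list held 50.3 to 79.0 CPM in WT and 67.0 to 76.2 CPM in KO. The macrophage and T-cell lists, given above, were also higher in KO UT than in WT UT with no overlap, as was the 3-gene mast cell list, at 0.0468 to 0.149 CPM in WT UT and 0.231 to 0.379 CPM in KO UT, with Mcpt4 and Tpsb2 at 0 counts in both. Most of the macrophage sum was Lyz2, at means of 23500 CPM in WT UT and 27300 CPM in KO UT. In that list Csf1r (2450 and 2240 CPM) and Fcgr1 (267 and 264 CPM) were lower in KO UT, and the others were higher. Most of the T-cell sum was Cd4, at means of 1.92 CPM in WT UT and 2.89 CPM in KO UT. The part of these lists in the Tnfsf8 values was not tested. Tnfrsf8, the CD30 receptor, was at 1.53 ± 0.201 CPM in WT UT and 1.08 ± 0.233 CPM in KO UT, and its difference between the responses was 0.53 (SE 0.20, adjusted p = 0.0784).

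Tnfsf9 was lower in KO under both treatments. Its level was 3.35 ± 0.334 CPM in WT UT and 2.28 ± 0.0588 CPM in KO UT, a log2 fold change of -0.56 (SE 0.11, adjusted p = 5.25e-04). After LPS it was 65.9 ± 2.89 CPM in WT and 52.8 ± 1.42 CPM in KO, a log2 fold change of -0.32 (SE 0.06, adjusted p = 0.00186). No library of KO reached the range of WT. With the small-RNA covariate the LPS value was -0.26 (adjusted p = 0.0831). The difference between the LPS responses was 0.24 (SE 0.13, adjusted p = 0.211). Tnfsf9 overlaps the noncoding gene Gm11110, which was at 1.43 to 3.99 CPM over all libraries.

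Tnfsf15 was at 61.8 ± 2.85 CPM in WT LPS and 45.5 ± 2.87 CPM in KO LPS, and all KO libraries were below all WT libraries. The log2 fold change was -0.44 (SE 0.07, adjusted p = 3.32e-04). Within batches it was -0.54, -0.51 and -0.28. Without LPS its counts were low, at 20 to 30 in WT and 9 to 16 in KO, and the log2 fold change was -0.50 (SE 0.26, adjusted p = 0.189). The difference between the LPS responses was 0.06 (SE 0.26, adjusted p = 0.924), so the genotype difference after LPS was not shown to depend on LPS. After LPS the 5-gene stromal list, led by Col1a2, Dcn and Col3a1 in KO LPS, summed to 1.89 to 4.29 CPM in WT and 6.91 to 8.42 CPM in KO. The mast cell list summed to 0 to 0.0449 CPM in WT LPS and 0.146 to 0.300 CPM in KO LPS, and the macrophage list was also higher in KO LPS, as given above. The part of these lists in the values of Tnfsf8, Tnfsf9 and Tnfsf15 was not tested.

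Tnfsf10 was not called in either contrast. Its log2 fold change of KO against WT was -0.04 (SE 0.07, adjusted p = 0.764) after LPS, on 3283 to 5082 counts per library, and -0.23 (SE 0.13, adjusted p = 0.219) without it. With the small-RNA covariate the value after LPS was -0.24 (adjusted p = 0.0253) and that without LPS was 0.21 (adjusted p = 0.540).

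The members that fell with LPS had 8 to 54 counts per library after it, so their genotype values had a larger error. Tnfsf14 had a log2 fold change of 0.14 (SE 0.37, adjusted p = 0.849) after LPS and -0.08 (SE 0.23, adjusted p = 0.858) without it. For Tnfsf13b these were 0.22 (SE 0.30, adjusted p = 0.684) and 0.07 (SE 0.23, adjusted p = 0.861). Both ligands overlapped between the genotypes under both treatments. With the small-RNA covariate Tnfsf14 was at 0.85 (adjusted p = 0.356) after LPS, -1.51 (adjusted p = 0.313) without it and 2.35 (adjusted p = 0.407) in the difference between the LPS responses.

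Tnfsf12 and Tnfsf13 lie head to tail on the minus strand of chromosome 11 (69686250 to 69695849 and 69682846 to 69685784), and their counts are uncertain. The read-through gene Tnfsfm13 covers both on the same strand, and Tnfsf13os lies antisense, with the strand setting of the counting not given in the sources used here. Tnfsf12 was at 6.74 ± 1.14 CPM in WT UT and 6.74 ± 1.18 CPM in KO UT. After LPS its log2 fold change of KO against WT was -0.86 (SE 0.36, adjusted p = 0.119), and the groups overlapped. Without WT LPS replicate 1 it was -0.44. Tnfsf13 was higher in every KO library than in every WT library under both treatments. Its log2 fold change was 0.68 (SE 0.23, adjusted p = 0.0396) without LPS and 0.93 (SE 0.37, adjusted p = 0.0965) with it. The value without LPS missed the adjusted p with the batch as a replicate block (0.0610), with DESeq2 (0.0711), with RLE scaling (0.0584), with no filter (0.0501) and with the small-RNA covariate (0.855). With each library left out in turn its adjusted p was 0.0240 to 0.213, and under 0.05 only without KO UT replicate 1.

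The antisense gene Tnfsf13os was also higher in KO UT. It had 65, 77 and 56 counts in WT UT and 117, 116 and 130 counts in KO UT, a log2 fold change of 1.19 (SE 0.24, adjusted p = 7.92e-04), and was named after its values were seen. With LPS it fell to 2 to 9 counts in WT and 9 to 15 counts in KO. Tnfsf12, Tnfsf13 and Tnfsfm13 summed as 1 feature had 448, 426 and 382 counts in WT UT and 359, 408 and 373 counts in KO UT, a log2 fold change of 0.18 (SE 0.15, adjusted p = 0.426). After LPS the sum was 51, 25 and 31 counts in WT and 40, 57 and 29 counts in KO, at 0.06 (SE 0.26, adjusted p = 0.913). The log2 fold change of the sum with LPS was -2.62 (SE 0.20) in WT and -2.75 (SE 0.19) in KO. In KO this lay between the values of Tnfsf12 (-3.54) and Tnfsf13 (-1.77) counted apart. The part of reads shared between these genes in the Tnfsf13 values was not tested at the level of reads.

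**Figure D5:**
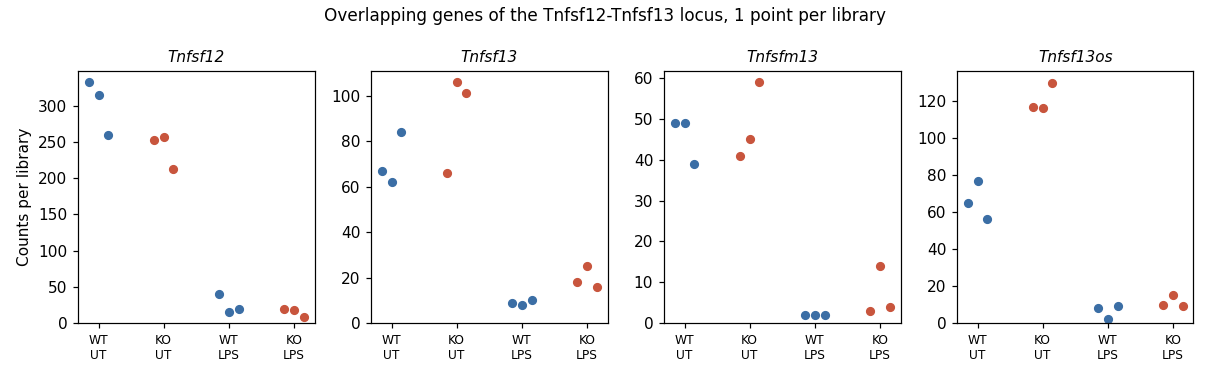
Counts per library of the 4 overlapping genes of the Tnfsf12-Tnfsf13 locus, 1 point per library, in the 4 groups (WT in blue, KO in red), each panel on its own axis from 0. All 4 genes are low after LPS, and Tnfsf13os is higher in all KO UT libraries (116 to 130) than in all WT UT libraries (56 to 77).

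In the lists of related genes, no receptor and no protease was called between genotypes under either treatment or in the difference of responses by edgeR. Of the receptors, 3 had an unadjusted p under 0.05 after LPS, 7 without LPS and 2 in the difference, beside 28.5%, 34.3% and 29.1% of all genes, and DESeq2 called 0, 1 and 0. Of the proteases, 3 had an unadjusted p under 0.05 in each of these, and DESeq2 called none. At any fold by edgeR, Furin was lower in KO after LPS (log2 fold change -0.275, adjusted p = 0.00397). Adam10 (0.307, adjusted p = 0.0217) and Adam17 (0.286, adjusted p = 0.00145) were higher, beside 14.3% of all genes. Adam10 was lower without LPS (-0.327, adjusted p = 0.00674), beside 23.8%. In the difference Adam10 (0.634, adjusted p = 9.55e-04) and Adam17 (0.32, adjusted p = 0.00693) were positive, beside 16.8%. Among the 4 tested other ligands, 2 were called lower in KO after LPS, Tnf and Lta, beside 1.25% of all genes. None was called by edgeR without LPS or in the difference, beside 1.82% and 2.16%. There 2 and 1 had an unadjusted p under 0.05, and DESeq2 called 1 and 0. At any fold by edgeR, Tnf was also lower in KO UT, at a log2 fold change of -0.66 (adjusted p = 1.29e-06). Tnfsf4 was lower in KO LPS, at -0.36 (adjusted p = 0.013). The difference between the LPS responses of Tnf was -0.38 (adjusted p = 0.00763). The shares of all genes at any fold are those given for the proteases. Lta, a neighbour of Tnf, had 14 to 28 counts per library in WT LPS and 3 to 5 counts in KO LPS (log2 fold change -2.47, SE 0.59, adjusted p = 0.00870).

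For 7 of the ligands the 2 protein-coding genes of most similar pattern were taken by Pearson's r of log2 CPM over the 12 libraries, among genes with a mean of at least 5 CPM. The libraries fall into UT and LPS groups, which sets most of each r. For Tnfsf8 these were Lgals3bp (r = 0.999) and Irf7 (r = 0.997), for Tnfsf10 Cflar and Acsl1, and for Tnfsf15 Tma16 and Tet2, with r from 0.9988 to 0.9996 for Tnfsf10 and Tnfsf15. For the members that fell, r was lower. These genes were Slc9a7 and Lpar5 for Tnfsf12 (r = 0.987 and 0.987), Pqlc1 and Tbxas1 for Tnfsf13 (r = 0.977 and 0.977), Ppm1f and Gemin5 for Tnfsf13b (r = 0.979 and 0.952), and Btbd6 and Abhd17a for Tnfsf14 (r = 0.987 and 0.972).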

How the data were processed

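The authors aligned paired-end total RNA reads of 12 libraries to GRCm38 with HISAT2 (2.1.0) and deposited raw counts per gene from featureCounts (2.0.0), per the submitters' processing notes. The annotation and strand setting of the counting are not given in the sources used here. The library kit keeps strand. Gene IDs without version were matched to GENCODE vM21 (48144 of 48526, the other 382 holding 0.122% of counts).

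Counts were analysed with edgeR (4.0.16) in R (4.3.3). Genes were filtered with filterByExpr by the 4 groups (minimum count 10, minimum total 15), leaving 15523 genes with 99.96% of counts. Libraries were scaled by TMM, and a model of 4 group means over all 12 libraries was tested by quasi-likelihood, with Benjamini-Hochberg adjustment over all genes tested. Genes with an adjusted p under 0.05 and an absolute log2 fold change over 1 were called, following the criteria of the study, which used DESeq2. SE is the absolute log2 fold change over the square root of F. CPM uses TMM-scaled totals, and CPM per kb divides by merged exon length. No replicate pair of a group agreed within counting noise (smallest chi-square per degree of freedom 3.81). The script was tested on simulated data.

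The labels give replicates 1 to 3 the batch numbers 1 to 3, so same-numbered libraries were taken as paired by label. Over 18 pairs, deviations from group means correlated at -0.0631 to 0.0373.

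The members, lists and motifs were chosen with earlier results of these data known. All 8 members are reported. The genes of most similar pattern to Tnfsf9 are not reported here. Of the listed receptors, ligands and proteases, those called between genotypes or with the largest change with LPS in each direction are named. Counting error limits the members with few counts after LPS. Alternatives were DESeq2 (1.42.0), RLE and upper-quartile scaling, filters, a replicate block, the small-RNA share as covariate, protein-coding genes, fewer groups, no fold minimum, leave-one-out and, added after seeing the data, the summed Tnfsf12-Tnfsf13 locus. Promoter windows were credited to RefSeq GRCm38.p6. Figures were drawn with matplotlib (3.10.9).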

Additional observations from a re-analysis of the deposited data

Results flagged for a closer look

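The LPS response of Tnfsf8 differed between the genotypes by the test of the difference itself. It was larger in KO by 1.25 on the log2 scale (SE 0.18, edgeR adjusted p = 9.64e-05), with log2 fold changes of 3.53 in WT and 4.77 in KO. The difference was positive in batches 1, 2 and 3. With the share of small structured RNAs as a covariate it was 0.73 (adjusted p = 0.346) and the call was lost. It was 1.08 to 1.37 when each library was left out in turn, with adjusted p from 1.26e-06 to 5.63e-04.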

How the results depend on the processing

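Of the member log2 fold changes under the alternatives, 616 kept their direction and their call by adjusted p and fold together, 9 kept the direction and lost the call, and 25 changed sign, all of these among values that were not called. Among those that kept the call, the adjusted p alone crossed 0.05 for Tnfsf9 and Tnfsf10 after LPS with the small-RNA covariate, and for Tnfsf13 without LPS under the alternatives named in its account, the summed locus included. Without the fold minimum, 3 members were called in KO LPS against WT LPS and 3 in KO UT against WT UT. With the small-RNA covariate, 5 were called in KO LPS against KO UT and 0 in the difference of responses, where edgeR had 1 by the main test. That covariate also changed the sign of Tnfsf10 (0.21 in KO UT against WT UT, -0.45 in the difference), Tnfsf13b (-0.006 in KO LPS against WT LPS, -0.61 in the difference) and Tnfsf15 (-0.26 in the difference). Tnfsf12 in KO UT against WT UT was 0.002 with a mean CPM of at least 1, 0.001 with the replicate block and 0.005 with protein-coding genes. As a summed locus it was 0.057 after LPS and 0.183 without it, and Tnfsf13 was -0.13 in the difference. The cause was not tested. The replicate block changed no call of a member at the fold minimum.

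With 1 library left out, values ranged in KO LPS against WT LPS from -0.111 to 0.033 for Tnfsf10, from -0.13 to 0.55 for Tnfsf13b and from -0.27 to 0.65 for Tnfsf14. In KO UT against WT UT they ranged from -0.13 to 0.14 for Tnfsf12, from -0.078 to 0.205 for Tnfsf13b and from -0.151 to 0.059 for Tnfsf14. Without changing sign, Tnfsf12 ranged from -1.08 to -0.44 in KO LPS against WT LPS and Tnfsf15 from -0.62 to -0.30 in KO UT against WT UT. In the difference, values ranged from -0.20 to 0.47 for Tnfsf13b, from -0.19 to 0.73 for Tnfsf14 and from -0.14 to 0.18 for Tnfsf15.

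Over all genes, calls in KO LPS against WT LPS, 194 by the main test, were 117 under the filter of mean CPM 1 or more and 103 with the covariate. In KO UT against WT UT, 283 calls became 160 and 111. In the difference, 335 calls became 42 with the covariate, 186 with protein-coding genes, 509 without WT LPS replicate 1 and 196 without WT LPS replicate 3. The filter of mean CPM and the protein-coding setting tested other sets of genes than the 15523 of the main test. Their counts of calls are therefore not on the same base. Without the fold minimum the counts of the 5 contrasts were 2223, 3700, 11386, 11295 and 2611. Upper-quartile scaling moved the median of all genes with LPS to -0.14 in WT and -0.24 in KO, and all 8 members were still called in both.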

Other observations

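Of the 12 receptors tested, some differed between the genotypes at an edgeR adjusted p under 0.05 without passing the fold minimum, and they were looked at after their values were seen. Without LPS these were 5, of which 4 were lower in KO, beside 23.8% of all genes at any fold. The lower ones were Tnfrsf8 (log2 fold change -0.53), Tnfrsf23 (-0.65), Tnfrsf26 (-0.40) and Tnfrsf14 (-0.32), and the higher one was Tnfrsf12a, the receptor of Tnfsf12, at 5.41 ± 0.305 CPM in WT UT and 8.48 ± 0.994 CPM in KO UT (log2 fold change 0.65, SE 0.14, adjusted p = 0.00168). After LPS these were 2, beside 14.3% of all genes. Tnfrsf9, the receptor of Tnfsf9, was higher in KO, with a log2 fold change of 0.93 (SE 0.11, adjusted p = 7.5e-06), while Tnfsf9 itself was at -0.32, and Tnfrsf26 was lower, at -0.57 (SE 0.17, adjusted p = 0.0253). In the difference between the LPS responses there was 1, Tnfrsf14, the receptor of Tnfsf14, at 0.34 (SE 0.08, adjusted p = 0.00568), beside 16.8% of all genes. Its KO level was lower without LPS (adjusted p = 3.25e-04), and after LPS its log2 fold change of KO against WT was 0.02 (adjusted p = 0.851).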
